A study of Arabidopsis thaliana with 6 samples.

Results

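Aliphatic glucosinolate synthesis is covered here by 10 Arabidopsis thaliana genes, chosen by name from knowledge of the pathway. They are MYB28 (gene-AT5G61420), BCAT4 (gene-AT3G19710), MAM1 (gene-AT5G23010), MAM3 (gene-AT5G23020, IMS2 in RefSeq), CYP79F1 (gene-AT1G16410), CYP79F2 (gene-AT1G16400), CYP83A1 (gene-AT4G13770), UGT74C1 (gene-AT2G31790), SOT17 (gene-AT1G18590) and SOT18 (gene-AT1G74090). All 10 were found among the 38150 rows of the deposited tables, and all 10 passed the filter on low values that left 20533 genes. The libraries came from 9-day-old whole seedlings, 3 of the nid1 knockout mutant and 3 of the wild type Col-0. Both genotypes had grown on 20 mM nitrate and then without nitrate, and then received 0.05 mM nitrate for 6 h, so the low supply is common to mutant and control. The sources used here name neither the locus that nid1 removes nor the kind of lesion, so the mutation could not be checked in the transcripts. Levels are FPKM, fragments scaled to transcript length and library size, so they can be set side by side between genes.

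Glucosinolates are sulfur-rich defence compounds of the cabbage order, and in Arabidopsis the aliphatic ones are built from methionine. The amino acid is first lengthened in a cycle of deamination (BCAT4), condensation with an acetyl group (MAM1, MAM3), isomerisation and oxidative decarboxylation. The lengthened amino acid is then turned into an aldoxime (CYP79F1, CYP79F2), oxidised further (CYP83A1), joined to sulfur from glutathione, glucosylated (UGT74C1) and sulfated (SOT17, SOT18), and enzymes of side-chain modification finish the product. The R2R3-MYB factor MYB28 is known as the leading activator of these genes.

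FPKM summed to 637.9, 765 and 709 over the 10 genes in nid1 replicates 1, 2 and 3, against 588, 650.3 and 603 in Col-0 replicates 1, 2 and 3. The ranges overlapped, since nid1 replicate 1 lay below Col-0 replicate 2. Each of the 10 genes had a log2 fold change above 0, with a median of 0.19 on the log2(FPKM + 1) scale, while the median over all 20533 genes was 0.00022 and 50% of them lay above 0. The 10 genes varied together over the 6 libraries, with a Pearson r above 0 in 42 of 45 pairs (median 0.61). Their directions are therefore not separate results, and those of MAM3, CYP79F2 and SOT17 turned when 1 library was left out. None of the 10 was called by limma at an adjusted p under 0.05, where 0.0877% of all tested genes were called. At an unadjusted p under 0.05, CYP79F1 and MAM1 were higher in nid1, so 2 of the 10 passed where 3.65% of all genes did so. The 3 nid1 values lay above all Col-0 values for CYP79F1 and MYB28, and 5.5% of all genes had that order. The smallest adjusted p among the 10 was 0.127, for CYP79F1. The labels do not call the replicates separate cultures, and the p-values then reflect only the variation among these 6 libraries, which may be technical. In whole seedlings a higher level per cell and more cells of a kind cannot be told apart.

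**Figure D1:**
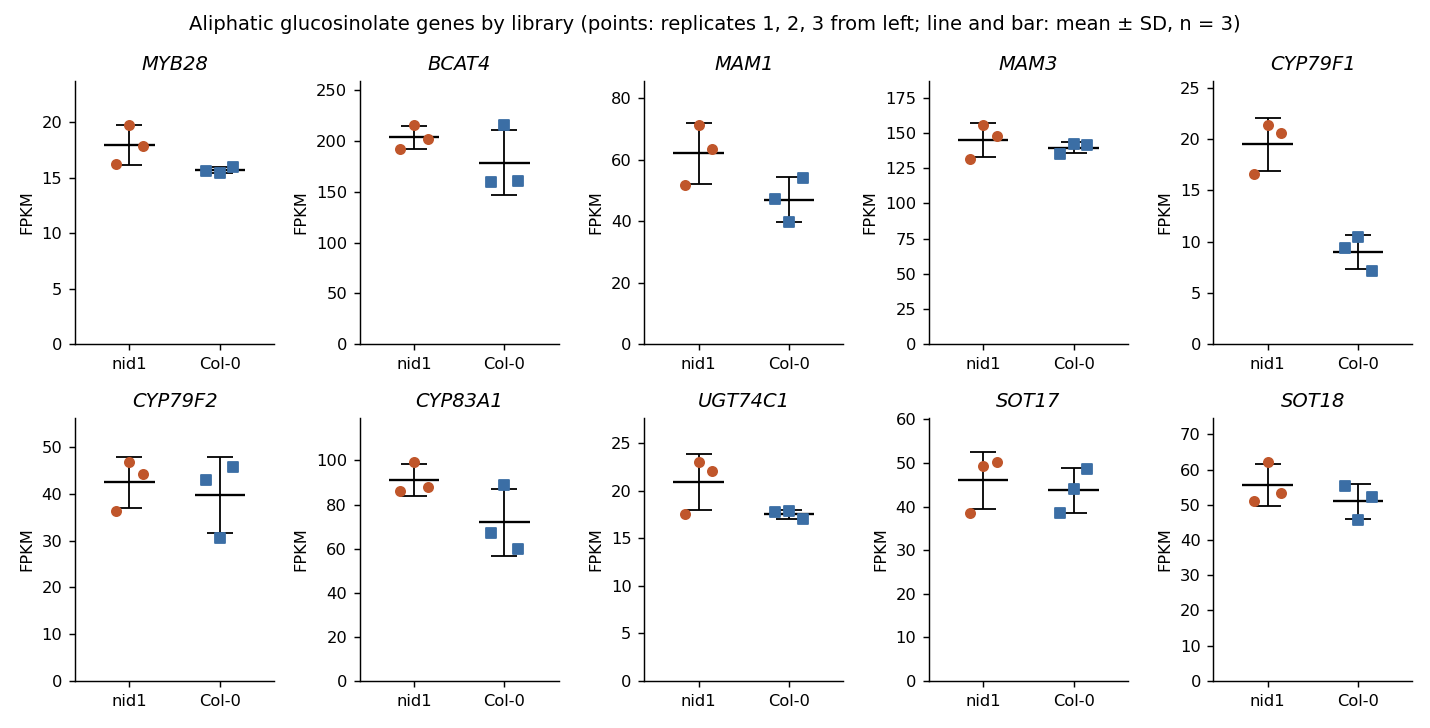
FPKM of each of the 10 genes (one panel each, axes from 0) in 3 nid1 libraries (circles, left) and 3 Col-0 libraries (squares, right), with mean ± SD. The groups stand clear of each other for CYP79F1, by a narrow gap for MYB28, and overlap for the other 8 genes.

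MYB28 (chromosome 5, 24689069 to 24691187, minus strand, TAIR10.1) had 16.2, 19.8 and 17.8 FPKM in nid1 replicates 1, 2 and 3, against 15.6, 15.5 and 16.0 FPKM in Col-0 replicates 1, 2 and 3. All nid1 values were above all Col-0 values, nid1 replicate 1 only narrowly. The Col-0 libraries were tightly grouped, with a coefficient of variation of 1.63%, against 9.93% in nid1. The log2 fold change was 0.18 (95% interval -0.09 to 0.45), with a limma adjusted p of 1.00, and was 0.11 without nid1 replicate 2.

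The other regulators gave no call. MYB29, the close relative of MYB28, was low in every library, at 0.298, 0.71 and 0.381 FPKM in nid1 against 0.193, 0.239 and 0.0583 FPKM in Col-0, and was below the filter. MYB76, the remaining factor of that subgroup, had 0.0339 and 0.062 FPKM in nid1 replicates 2 and 3 and was listed at 0 in the other 4 libraries. The jasmonate-linked bHLH factors MYC2, MYC3 and MYC4, which act beside the MYB factors, had log2 fold changes of -0.07, -0.05 and -0.0043, and none was called. MYC2 shares 3241 of its 3289 exonic bases with AT1G32630 on the other strand, so its level is uncertain.

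Chain elongation begins with BCAT4, which removes the amino group of methionine. BCAT4 was the most abundant of the 10 transcripts in each of the 6 libraries, with 192, 216 and 202 FPKM in nid1 replicates 1, 2 and 3, against 159, 216 and 161 FPKM in Col-0 replicates 1, 2 and 3. Col-0 replicate 2 reached the top of the nid1 range, and the other Col-0 libraries lay under it. The log2 fold change was 0.20 (95% interval -0.17 to 0.57; limma adjusted p = 1.00), and 0.34 without Col-0 replicate 2 (adjusted p = 0.227), 0.13 without Col-0 replicate 1 and 0.13 without Col-0 replicate 3. BCAT4 shares 307 of its 1451 exonic bases with AT3G19700 on the other strand, so its level and its rank are uncertain to that extent.

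MAM1 and MAM3 encode the methylthioalkylmalate synthases of the condensation step, MAM3 being known for the long chains. They lie side by side on chromosome 5, at 7703041 to 7706973 and 7718118 to 7721866, on the plus strand with 11144 bases and no annotated gene between them. MAM1 measured 51.6, 71.3 and 63.3 FPKM in nid1 replicates 1, 2 and 3, against 47.1, 39.7 and 54.1 FPKM in Col-0 replicates 1, 2 and 3. The groups overlapped by 1 library, since nid1 replicate 1 lay below Col-0 replicate 3. Its log2 fold change of 0.39 (SE 0.17, 95% interval 0.0063 to 0.78) missed the threshold, with a limma adjusted p of 0.791. MAM3 measured 131.6, 156 and 148 FPKM in nid1, against 135, 142 and 142 FPKM in Col-0. All 3 Col-0 values fell inside the nid1 range, and the interval of the log2 fold change ran from -0.24 to 0.34. The ratio of MAM1 to MAM3 within a library was 0.392, 0.458 and 0.429 in nid1 and 0.349, 0.279 and 0.382 in Col-0, without overlap. An exact two-sided permutation test gave p = 0.1 for this ratio, the smallest that 3 against 3 allows (adjusted p = 0.2 over 6 tests of pairs).

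The remaining elongation genes differed little. All 6 of them, BCAT3, the transporter BAT5, the isomerase subunits IIL1, IPMI2 and IPMI1, and the dehydrogenase IMD1, had log2 fold changes above 0, from 0.015 (IIL1) to 0.23 (BAT5). Of all tested genes, 50% lay above 0. The median of the 6 was 0.12, none was called by limma and none had an unadjusted p under 0.05. BCAT3 alone of the 6 had every nid1 value above every Col-0 value, an order that 5.5% of all genes had.

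CYP79F1 had the largest difference of the 10 genes. This cytochrome P450 makes the aldoxime from lengthened methionine and is the entry to the core pathway. It measured 16.6, 21.4 and 20.6 FPKM in nid1 replicates 1, 2 and 3, against 9.41, 10.4 and 7.14 FPKM in Col-0 replicates 1, 2 and 3. The lowest nid1 library stood well clear of the highest Col-0 library. Means were 19.5 ± 2.58 FPKM in nid1 and 8.99 ± 1.69 FPKM in Col-0 (SD, n = 3 each), a ratio of 2.17. The log2 fold change was 1.04 (SE 0.17, 95% interval 0.66 to 1.43). By unadjusted p CYP79F1 ranked 41 among the 20533 genes, and with adjustment over all of them it missed the threshold (limma adjusted p = 0.127). In 13 other settings of the fit the adjusted p lay between 0.0614 and 0.65 and the log2 fold change between 0.90 and 1.15.

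CYP79F2, which acts on the longest chains, did not show this difference. It measured 36.4, 46.9 and 44.2 FPKM in nid1 replicates 1, 2 and 3, against 42.9, 30.5 and 45.6 FPKM in Col-0 replicates 1, 2 and 3. Col-0 replicate 2 was the lowest of the 6 libraries, and the other Col-0 libraries lay inside the nid1 range. The log2 fold change was 0.11 (95% interval -0.31 to 0.52) and turned to -0.07 without Col-0 replicate 2. Both P450 genes lie in tandem on the plus strand of chromosome 1, CYP79F2 at 5605044 to 5607498 and CYP79F1 at 5608682 to 5612064, with 1183 bases between them.

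Because the 2 genes are close copies, their sequence decides how well fragments can be told apart, and their most alike stretch of 1 read length in the coding exons is therefore shown first. Capitals mark the bases that differ, here 1 of 101, in coding exon 2 of both genes (chr1:5609945-5610045 and chr1:5606377-5606477, plus strand, TAIR10.1):
CYP79F1: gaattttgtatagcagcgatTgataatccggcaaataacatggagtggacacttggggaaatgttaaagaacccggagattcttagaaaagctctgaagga
CYP79F2: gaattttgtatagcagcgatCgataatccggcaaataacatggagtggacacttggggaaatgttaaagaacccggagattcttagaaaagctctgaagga
The least alike stretch, in coding exon 1 (chr1:5609569-5609669 and chr1:5605935-5606035), has 22 differences:
CYP79F1: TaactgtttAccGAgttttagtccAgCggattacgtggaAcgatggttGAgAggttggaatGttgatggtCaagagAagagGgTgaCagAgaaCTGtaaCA
CYP79F2: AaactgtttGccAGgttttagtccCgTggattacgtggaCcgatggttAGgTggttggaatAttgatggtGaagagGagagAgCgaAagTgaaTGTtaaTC
Over 1284 such stretches the median was 8 differences. The coding sequences were 91.2% identical over 1617 alignment columns, against 78.9% for MAM1 and MAM3 and 76.9% for SOT17 and SOT18. The longest run shared by the CYP79F1 and CYP79F2 transcripts was 100 bases. No run of 101 bases of either transcript occurred in any transcript of another gene, while 2.0% of the runs of 50 bases of CYP79F1 and 2.74% of those of CYP79F2 occurred in the other gene. The sources used here do not say how fragments that match both genes were divided by the authors, so single levels of this pair carry that uncertainty.

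The sum of both genes does not depend on how fragments were divided between them, apart from their lengths. It was 52.9, 68.2 and 64.7 FPKM in nid1, against 52.3, 40.9 and 52.8 FPKM in Col-0. Every nid1 sum was above every Col-0 sum, nid1 replicate 1 only narrowly. The difference was 0.34 on the log2 scale (exact two-sided permutation p = 0.1, the smallest possible; adjusted p = 0.2 over the 6 tests of pairs). CYP79F1 made up 31.3%, 31.3% and 31.8% of that sum in nid1 replicates 1, 2 and 3, against 18.0%, 25.5% and 13.5% in Col-0 replicates 1, 2 and 3. The share was nearly the same in all nid1 libraries and spread over the Col-0 libraries. The ratio of CYP79F1 to CYP79F2 was 0.459 ± 0.00575 in nid1 and 0.239 ± 0.0946 in Col-0 (SD, n = 3 each). This difference between the genes' changes, 0.94 on the log2 scale, also gave an exact two-sided permutation p of 0.1 (adjusted p = 0.2), and ranged from 0.69 to 1.21 when 1 library was left out.

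**Figure D2:**
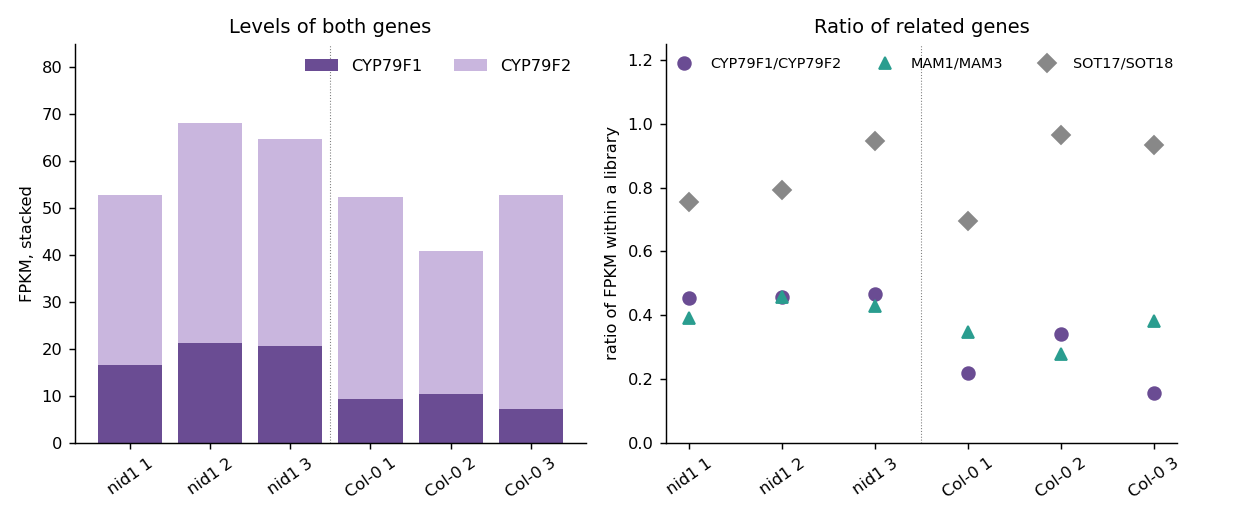
Left, FPKM of CYP79F1 (dark) stacked with CYP79F2 (light) in each library, nid1 replicates 1 to 3 and then Col-0 replicates 1 to 3. Right, ratios of FPKM within a library for 3 related pairs; the CYP79F1 to CYP79F2 ratio lies near 0.459 in all nid1 libraries and at 0.156 to 0.342 in Col-0, while the SOT17 to SOT18 ratio overlaps between genotypes.

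The ratio of CYP79F1 to CYP79F2 did not overlap between the genotypes, but its adjusted p was 0.2 (exact two-sided permutation). Upstream regions of both P450 genes are shown with that contrast not established. Each is the 250 bases before the annotated start (chr1:5608432-5608681 for CYP79F1 and chr1:5604794-5605043 for CYP79F2, plus strand), with that of CYP83A1 (chr4:7992430-7992679, minus strand) for comparison. Capitals mark matches, searched on both strands. The patterns were the G-box CACGTG, the element of bHLH factors such as MYC2, and ACCNAAC, used here for the AC element of R2R3-MYB factors:
CYP79F1: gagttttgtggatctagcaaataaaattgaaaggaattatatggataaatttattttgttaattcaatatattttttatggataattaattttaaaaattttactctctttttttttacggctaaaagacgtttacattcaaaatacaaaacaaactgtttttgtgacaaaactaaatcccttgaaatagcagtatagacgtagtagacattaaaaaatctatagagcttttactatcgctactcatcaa
CYP79F2: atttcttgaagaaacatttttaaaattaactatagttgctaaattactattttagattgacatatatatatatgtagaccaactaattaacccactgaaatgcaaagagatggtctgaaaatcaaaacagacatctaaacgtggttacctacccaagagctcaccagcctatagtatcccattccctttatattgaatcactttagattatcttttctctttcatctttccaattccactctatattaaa
CYP83A1: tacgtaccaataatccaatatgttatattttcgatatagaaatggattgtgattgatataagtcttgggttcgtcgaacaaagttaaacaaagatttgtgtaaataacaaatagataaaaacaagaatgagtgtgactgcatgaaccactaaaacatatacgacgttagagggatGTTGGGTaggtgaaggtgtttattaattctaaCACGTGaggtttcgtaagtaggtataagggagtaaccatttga
Neither window of the CYP79F pair matched either of these patterns, while that of CYP83A1 matched each 1 time, without overlap. Among the 10 genes, 1 window held a G-box and 2 held ACCNAAC, in CYP83A1 and SOT17. Of 27443 windows of the same length before nuclear protein-coding genes, 6.49% held the G-box and 14.5% held ACCNAAC. These matches describe letters only. ACCNAAC allows any base at N, and other forms of the AC element were not searched. One such form, ACCTACC, can be read in the CYP79F2 window and, on the other strand, in that of CYP83A1. The windows shown are therefore not free of AC elements of every form.

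CYP83A1, the P450 that oxidises the aldoximes of both CYP79F enzymes, measured 85.9, 99.5 and 88.2 FPKM in nid1 replicates 1, 2 and 3, against 66.9, 89.0 and 60.0 FPKM in Col-0 replicates 1, 2 and 3. Col-0 replicate 2 lay inside the nid1 range and the other Col-0 libraries below it. The log2 fold change was 0.35 (95% interval -0.03 to 0.74; limma adjusted p = 0.865), and 0.52 without Col-0 replicate 2 (adjusted p = 0.139) and 0.24 without Col-0 replicate 3. Like BCAT4, CYP83A1 was therefore higher in Col-0 replicate 2 than in the mean of the other Col-0 libraries, by 0.49 in log2 FPKM for CYP83A1 and 0.43 for BCAT4. CYP79F2, MAM1 and SOT18 were lower there, by log2 values of -0.54, -0.35 and -0.24. Col-0 replicate 2 also stood apart over all genes, on a first principal component holding 38.3% of the variance, and its part in these spreads was not tested beyond leaving it out.

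The later steps of the core pathway had small differences. UGT74C1, a glucosyltransferase of the aliphatic branch, measured 17.6, 23.1 and 22.0 FPKM in nid1 replicates 1, 2 and 3, against 17.7, 17.9 and 17.0 FPKM in Col-0 replicates 1, 2 and 3. Only nid1 replicate 1 lay among the Col-0 values. The log2 fold change was 0.23 (95% interval -0.07 to 0.54; limma adjusted p = 0.965). UGT74C1 shares 265 of its 1641 exonic bases with AT2G08470 on the other strand, so its level is uncertain to that extent. The sulfotransferase SOT17 measured 38.5, 49.2 and 50.3 FPKM in nid1, against 38.5, 44.0 and 48.6 FPKM in Col-0. SOT18, which catalyses the same step and lies 151 bases from the indole-branch sulfotransferase SOT16, measured 51.1, 62.2 and 53.2 FPKM in nid1, against 55.3, 45.5 and 52.1 FPKM in Col-0. The genotypes overlapped for both, with log2 fold changes of 0.07 (95% interval -0.28 to 0.42) for SOT17 and 0.12 (-0.19 to 0.43) for SOT18. That of SOT18 was 0.036 without nid1 replicate 2 and 0.043 without Col-0 replicate 2. The SOT17 to SOT18 ratio was 0.83 ± 0.102 in nid1 and 0.865 ± 0.147 in Col-0 (exact two-sided permutation p = 0.9).

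In each of the 6 libraries BCAT4 was highest, MAM3 next and CYP83A1 after it, followed in the middle by MAM1, SOT18, SOT17 and CYP79F2 and then by UGT74C1. The 4 middle genes changed places between libraries. The places of BCAT4 and UGT74C1 carry the uncertainty of the exonic bases they share with other genes. In nid1, MYB28 was lowest and CYP79F1 next in all 3 libraries, and in Col-0 CYP79F1 was lowest and MYB28 next in all 3. Within nid1, replicate 1 had the lowest value for 10 of the 10 genes and replicate 2 the highest for 9. In Col-0 the lowest values were spread over the libraries, at 3, 4 and 3 genes in replicates 1, 2 and 3.

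Side-chain modification held the other genes with low p-values. AOP2, which makes alkenyl side chains and is known to be non-functional in Col-0, measured 1.65, 2.14 and 1.33 FPKM in nid1 replicates 1, 2 and 3, against 0.769, 0.617 and 0.541 FPKM in Col-0 replicates 1, 2 and 3. All Col-0 values were below 1 FPKM, so AOP2 passed the filter only through the nid1 libraries. Its p-value and the order of its values are tied to that filter. The S-oxygenase gene FMO GS-OX1 measured 5.49, 6.79 and 5.19 FPKM in nid1, against 3.48, 4.65 and 3.65 FPKM in Col-0. FMO GS-OX3, of the same family, measured 12.8, 15.1 and 12.5 FPKM in nid1, against 10.1, 11.8 and 8.92 FPKM in Col-0. For these 3 genes, named for their low p-values, every nid1 value was above every Col-0 value, an order that 5.5% of all genes had. Their log2 fold changes were 0.71, 0.47 and 0.36 (unadjusted p = 0.00188, 0.0145 and 0.0316), and limma called none of them (adjusted p = 0.259, 0.555 and 0.715). Without the added 1, the mean FPKM of AOP2 in nid1 was 2.66 times that in Col-0, a larger ratio than its log2 fold change gives. FMO GS-OX2, FMO GS-OX4, FMO GS-OX5 and the hydroxylase GSL-OH lay between -0.14 and 0.04 and overlapped between the genotypes; FMO GS-OX5 shares exonic bases with 3 annotated genes, so its level is uncertain. AOP3 was at 0.12 FPKM or less in every library.

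Across the 31 other genes of the pathway that were listed, 28 were tested. They were split into 19 above 0 and 9 below, where 50% of all tested genes lay above 0. By limma 0 were called, against 0.0877% of all genes. At an unadjusted p under 0.05, 3 were higher in nid1, against 3.65% of all genes. These were the 3 side-chain genes above, of which AOP2 passed the filter only through the nid1 libraries. The median log2 fold change was 0.03. Leaving out any 1 of the 6 libraries moved that median by over 1.5 times, between -0.00070 without Col-0 replicate 3 and 0.077 without nid1 replicate 1. The shared core genes GSTF11, GSTU20, GGP1, SUR1, UGT74B1, APK1 and APK2 lay between -0.06 and 0.19, and all 934 exonic bases of GSTF11 are shared with AT3G03200 on the other strand. The transporters GTR1 and GTR2, which load glucosinolates into phloem, had log2 fold changes of 0.01 and -0.11. Of the sulfur-linked repressors, SDI2 lay at -0.23, SLIM1 at -0.05 and SDI1 at 0.03. The indole branch, which starts from tryptophan, had all 7 listed genes above 0, where 50% of all tested genes were. Their changes were smaller, from 0.03 (SOT16) to 0.14 (MYB34), with a median of 0.09. Of the 7 indole genes, 0 had an unadjusted p under 0.05. Whether the aliphatic and indole genes differ in change was not tested.

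**Figure D3:**
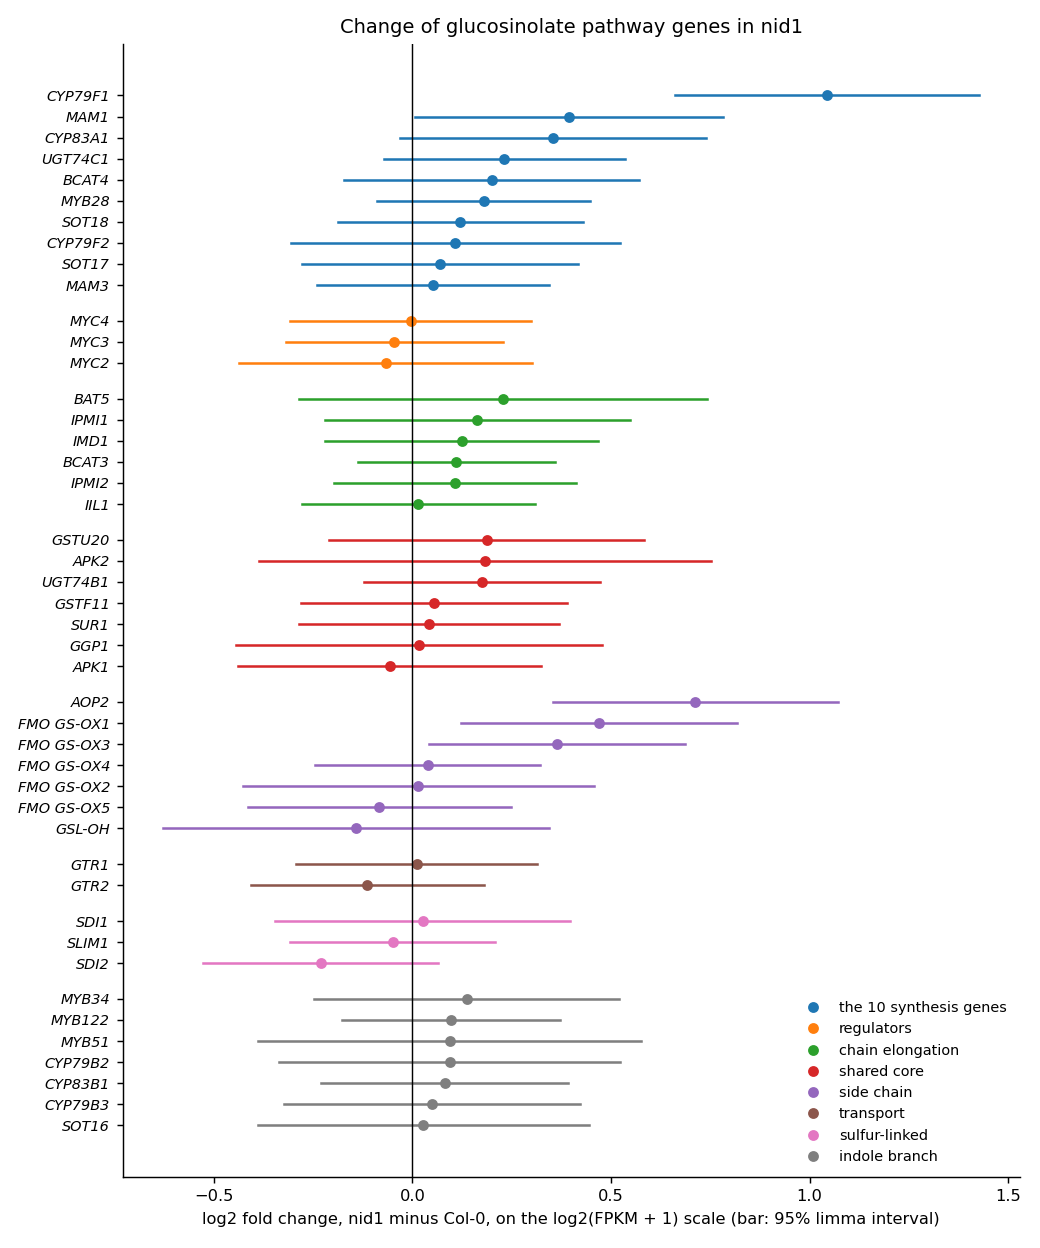
Log2 fold change, nid1 minus Col-0, of 45 tested glucosinolate genes with 95% limma intervals, in groups by step. CYP79F1, MAM1, AOP2, FMO GS-OX1 and FMO GS-OX3 have intervals above 0; none passed the adjustment over all genes.

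Markers of green shoot and of root were both present in these whole seedlings. Green shoot genes summed to 629, 1068 and 936 FPKM over 9 genes in nid1 replicates 1, 2 and 3, against 389, 474 and 433 FPKM in Col-0 replicates 1, 2 and 3, without overlap. RBCS1A and LHCB1.3 were the largest of them in every library. Of the 9 genes, 8 had log2 fold changes above 0, where 50% of all tested genes did. At an unadjusted p under 0.05, 6 were higher in nid1, against 3.65% of all genes. By limma 0 were called (smallest adjusted p = 0.122), against 0.0877% of all genes. GLDP1 went the other way, at -0.11, and RCA, GGAT1, SBPASE and GLDP1 overlapped between the genotypes. Root genes summed to 3031, 3169 and 3160 FPKM over 8 genes in nid1, against 4146, 4282 and 3664 FPKM in Col-0, without overlap, most of it from PYK10, the root beta-glucosidase. Without PYK10, a sum added after the values were seen, the other 7 root genes came to 278, 269 and 269 FPKM in nid1, against 286, 288.5 and 235 FPKM in Col-0, and the genotypes overlapped. Of the 8 root genes, 4 lay above 0 and 4 below. No marker of either list was at 0 in any library. The nid1 libraries stood in the same order, replicate 2 above 3 above 1, for the summed green genes, root genes with PYK10, and 10 glucosinolate genes. Col-0 had that order too for the green and glucosinolate sums. The median-ratio scale factors of the libraries had it in both genotypes. Other sums did not: in nid1 the indole genes stood as replicate 2 above 1 above 3. The root genes without PYK10 stood as replicate 1 above 2 above 3 there. The part of organ composition in the glucosinolate values was not tested.

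**Figure D4:**
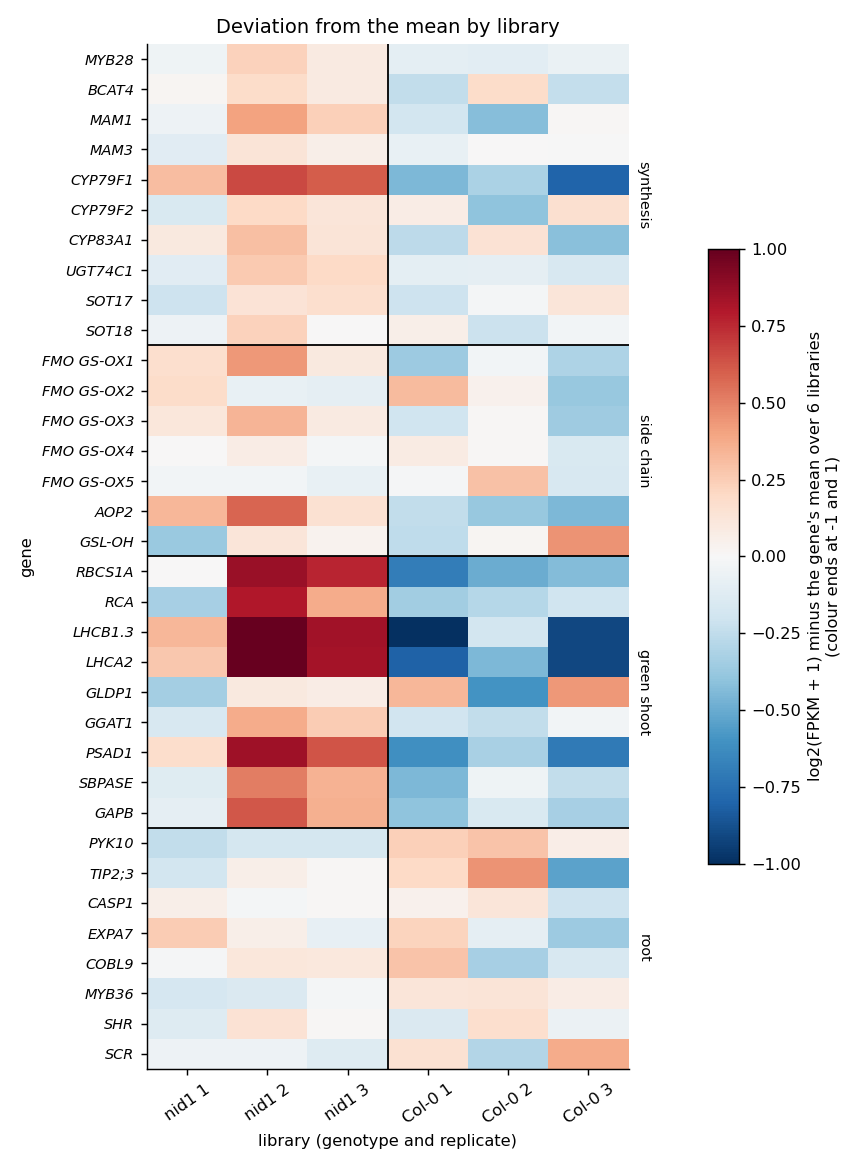
Log2(FPKM + 1) minus each gene's mean over the 6 libraries (colour, red above and blue below), with genes in rows by group and libraries in columns, nid1 left of Col-0. CYP79F1 and most green shoot genes are red in nid1 replicates 2 and 3 and blue in Col-0; the other 9 synthesis genes are paler and Col-0 replicate 2 departs in both directions.

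The 5 genes outside the list whose levels followed the mean profile of the 10 most closely were GLCAK, AT1G28620, AT1G13750, AT3G26115 and AT5G48790, with likenesses (Pearson r over the 6 libraries, the largest among 20523 candidate genes and so high by selection) of 0.996, 0.996, 0.995, 0.994 and 0.993. GLCAK, a glucuronokinase, measured 13.8, 15.7 and 15.2 FPKM in nid1, against 13.4, 13.5 and 13.6 FPKM in Col-0. In these genes nid1 replicate 2 was highest and nid1 replicate 1 closest to the Col-0 libraries. That order follows from their selection by likeness to the mean profile and is no separate result.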

How the data were processed

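Per the labels' protocols, total RNA of whole seedlings went into stranded mRNA libraries with reads of 101 bp in pairs. The authors deposited 1 FPKM value per gene and library. The submitters' processing notes name bcl2fastq 2.20, Bowtie, TopHat2 2.0.13 and Cuffdiff 2.2.1 without roles. Build, strand setting and library scaling are not given there. Among 38150 identifiers, 37932 equal loci of the RefSeq TAIR10.1 annotation, and 218 give mitochondrial positions that all match its features, so TAIR10.1 was used for coordinates (1-based) and sequence. No counts were used and depth is unknown: only 27.3 to 29.3% of low values in single-transcript genes lay within 0.1 of a whole multiple of the most frequent step. FPKM summed to 740630 to 804310 in nid1 libraries and to 730060 to 964270 in Col-0.

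The log2(FPKM + 1) values went into limma 3.58.1 under R 4.3.3 (eBayes with trend, two-sided, genotype only). A gene needed 1 FPKM in 3 or more libraries to be tested, which 20533 did, and p-values were adjusted over these by Benjamini-Hochberg, with calls at an adjusted p under 0.05. Fold changes on this scale understate those of low genes. The fit was checked on simulated data. Pairs of related genes were compared by exact permutation (6 tests). Identities are from global alignment of the longest coding sequences (Biopython 1.88). As alternatives, the replicate number was used as a block, each library was left out, the pseudocount was 0.1 or 0.5, the filter was lowered to 0.1 FPKM or dropped, libraries were rescaled by median ratios, and the trend was omitted. The 10 genes, the lists and the rule for naming others (up to 4 per list by smallest unadjusted p under 0.05, and the 5 most alike profiles) were chosen with earlier results of these data known. List genes outside that rule are named as values only.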

Additional observations from a re-analysis of the deposited data

How the results depend on the processing

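None of the 10 genes was called in any of the 13 other settings of the limma fit. The number of genes called over the whole table was 18 in the main fit, 70 with the replicate number as a block and between 8 and 35 when 1 library was left out (35, 8 and 10 without nid1 replicates 1, 2 and 3, and 9, 25 and 8 without Col-0 replicates 1, 2 and 3). Same-numbered libraries deviated together with correlations of -0.01, 0.13 and 0.30 for replicates 1, 2 and 3. The nid1 replicates 2 and 3 correlated best with the Col-0 library of their own number, and nid1 replicate 1 with Col-0 replicate 2 (0.22). These values do not settle whether the numbers pair the libraries. The labels state no pairing, so the main fit used none. Under the block CYP79F1 had an adjusted p of 0.0614. The median log2 fold change of the 10 genes ranged from 0.13 to 0.24 with 1 library left out. Direction turned for MAM3 without nid1 replicate 2 (range with 1 library left out -0.0020 to 0.12), for CYP79F2 without Col-0 replicate 2 (-0.066 to 0.22), for SOT17 without Col-0 replicate 1 (-0.017 to 0.19), and for the SOT17 to SOT18 log2 ratio (-0.20 to 0.035) without nid1 replicate 1, Col-0 replicate 2 or Col-0 replicate 3; the cause was not tested. All other directions of the 10 genes and of the pair sums and ratios held in the settings run. Leaving out 1 library gave 0.23 to 0.45 for the CYP79F1 and CYP79F2 sum, 0.69 to 1.21 for their ratio, 0.076 to 0.23 for the MAM1 and MAM3 sum, 0.22 to 0.44 for their ratio and 0.026 to 0.18 for the SOT17 and SOT18 sum. With unknown depth, no counting interval can be given.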
